A study of Mus musculus with 10 samples.

Results

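Immediate early and stress response genes were described in mast cells of the mouse lower airway as a set of 39 gene symbols, chosen by name from the 22815 symbols of the count table and arranged in 10 subfamilies. They comprise the AP-1 and ATF factors, the Egr, Ier, Klf and Nr4a genes, the Dusp phosphatases, mRNA decay and antiproliferation genes, heat shock genes, feedback inhibitors of NF-kB and cytokine signalling, and the pair Myc and Rhob. All 39 symbols were in the table, and all 39 were among the 10533 symbols that passed the filter on low counts. Mast cells had been sorted by flow cytometry from wild-type C57BL/6 mice aged 5 to 7 weeks and read as bulk RNA-seq in 10 libraries. The 4 groups were B7hi cells after house dust mite extract (HDM, 3 libraries), B7low cells after HDM (3 libraries), B7hi cells after saline (2 libraries) and B7low cells after saline (2 libraries). Challenge was intranasal, in 20 µL, 2 times a week for 3 weeks, with 3 µg of HDM extract or with saline alone. The title of the series speaks of inducible and constitutive mast cells, but no label ties either word to B7hi or B7low, and the number of mice and of cells behind a library is not given in the sources used here.

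Immediate early genes are transcribed within minutes of a stimulus from promoters that are already poised, without new protein synthesis, and their mRNAs are short-lived. MAP kinase, calcium and stress signals reach them through factors such as SRF and CREB, and many of their products switch the response off again, among them the Dusp phosphatases, Zfp36, Nfkbia, Tnfaip3 and Socs3. In mast cells they are induced by crosslinking of the IgE receptor, and the same genes also respond to the enzymatic release of cells from tissue.

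Library totals ran from 525983 to 1725818 counts, and levels are given below as CPM, the usual count relative to the library size, here scaled by TMM. Of the 8 mast cell markers examined (Kit, Cpa3, Fcer1a, Ms4a2, Cma1, Hdc, Gata2 and Tpsb2) all were present in every group, with a summed level of 18650.2 to 30649 CPM in B7hi HDM, 48369 to 67941 CPM in B7low HDM, 13600.1 to 16196 CPM in B7hi saline and 54909 to 93618 CPM in B7low saline libraries. Most of the gap between these sums lay in the protease genes Cma1, Cpa3 and Tpsb2. With saline, Cma1 averaged 1766 CPM in B7hi and 25771 CPM in B7low libraries, and Tpsb2 382 and 13171.5 CPM. Ms4a2, at 833 and 885 CPM, and Gata2, at 1046 and 1285 CPM, differed least. Kit averaged 3331 and 5349 CPM, Fcer1a 750 and 2709 CPM and Hdc 1605 and 4455 CPM. Summed over 5 B cell markers the level was 5.63 to 18.5 CPM in B7hi HDM, 79 to 589.6 CPM in B7low HDM, 12.1 to 67.3 CPM in B7hi saline and 19.2 to 40.1 CPM in B7low saline libraries. Summed over 5 T and NK cell markers, mostly Nkg7, it was 144 to 401 CPM in B7hi HDM, 50.2 to 227 CPM in B7low HDM, 521 to 522 CPM in B7hi saline and 45.5 to 129 CPM in B7low saline libraries. The 6 epithelial markers, mostly Cdh1, summed to 73.8 to 138 CPM in B7hi HDM, 57.9 to 129 CPM in B7low HDM, 137 to 187 CPM in B7hi saline and 10.5 to 26.8 CPM in B7low saline libraries, and 3 basophil markers to 1113 to 1696 CPM in B7hi HDM, 954 to 1376 CPM in B7low HDM, 757 to 871 CPM in B7hi saline and 1103 to 1189 CPM in B7low saline libraries. Averaged over both challenges, the basophil protease Mcpt8 was higher in B7hi than in B7low, with a log2 fold change of 2.37 ± 0.47 (edgeR adjusted p = 0.012), whereas Prss34 and Cd200r3, the others of that list, were lower, with -5.27 ± 0.35 (edgeR adjusted p = 3.5e-07) for Prss34 and -2.39 ± 0.25 (edgeR adjusted p = 1.2e-05) for Cd200r3. No library exceeded 15.6 CPM summed over macrophage and monocyte, 18.1 CPM over neutrophil and 31.8 CPM over eosinophil markers, and C1qa, S100a8, Prg2 and Epx of these lists were at 0 in all 10. The part of these markers' cells in the results below was not tested. The libraries B7hi HDM 2 and B7low saline 2 stood apart with 12133 and 6956 CPM of the noncoding RNA Kcnq1ot1, against 806 to 2794 CPM in the other 8. In bulk libraries fewer cells of a type and less RNA per cell cannot be told apart, and since nothing in the labels ties replicates to separate mice, the p-values below reflect library-to-library spread that may be technical.

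The genes as a set were abundant mRNAs in every group. They held 2.65 ± 0.27% of a library's counts in B7hi HDM (SD, n = 3), 4.17 ± 0.63% in B7low HDM (SD, n = 3), 2.39 ± 0.51% in B7hi saline (SD, n = 2) and 4.04 ± 0.85% in B7low saline libraries (SD, n = 2). The B7hi and B7low libraries did not overlap in this share with either challenge. The counts it is taken from include the ribosomal RNA precursor Rn45s, so it is no share of mRNA alone. Rn45s held 22.7, 26.3 and 23.6% of counts in B7hi HDM and 24.1, 21.9 and 24.9% in B7low HDM libraries. With saline it held 19.7 and 21.6% in B7hi and 27.2 and 28.9% in B7low libraries. When levels were divided by the length of the exons, 13 of the 39 ranked in the top 1% of 18763 genes. Junb ranked 11th on this per-length scale, Jun 19th, Fos 20th, Nr4a1 23rd, Ier3 24th and Nfkbia 26th. At the other end of the same scale Hspa1a ranked 7051st, though reads that it shares with its near copy Hspa1b may have been split or left uncounted.

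Fos, Jun, Klf2, Klf4, Dusp1 and Rhob were called lower in B7hi than in B7low cells with HDM and with saline alike, and the 250 bases before their transcription starts are shown because these 6 genes were called with both challenges. Each of their HDM calls was lost without at least 1 single library, as given by gene below. The sequences are from RefSeq on GRCm38.p6, on the strand of the gene, 5′ to 3′, at chr12:85473640-85473889 (+ strand) for Fos, chr4:95052223-95052472 (- strand) for Jun, chr8:72318812-72319061 (+ strand) for Klf2, chr4:55532476-55532725 (- strand) for Klf4, chr17:26508473-26508722 (- strand) for Dusp1 and chr12:8500010-8500259 (- strand) for Rhob. Capitals mark exact matches, on either strand, to the motifs described after them.
Fos: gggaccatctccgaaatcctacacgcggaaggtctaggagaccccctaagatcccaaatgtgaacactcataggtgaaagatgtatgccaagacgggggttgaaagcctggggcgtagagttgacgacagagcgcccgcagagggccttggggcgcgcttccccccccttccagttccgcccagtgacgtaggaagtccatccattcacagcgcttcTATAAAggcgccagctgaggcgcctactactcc
Jun: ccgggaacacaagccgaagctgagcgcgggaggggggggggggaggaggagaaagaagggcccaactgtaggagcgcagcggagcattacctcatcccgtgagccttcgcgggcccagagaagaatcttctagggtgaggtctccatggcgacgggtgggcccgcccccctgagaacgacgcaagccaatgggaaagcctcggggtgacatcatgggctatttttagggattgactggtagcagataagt
Klf2: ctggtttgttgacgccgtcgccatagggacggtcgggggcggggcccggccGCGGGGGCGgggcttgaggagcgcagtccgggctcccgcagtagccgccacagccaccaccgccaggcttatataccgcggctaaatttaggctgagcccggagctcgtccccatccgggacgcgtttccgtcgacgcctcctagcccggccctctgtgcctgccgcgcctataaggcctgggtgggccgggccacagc
Klf4: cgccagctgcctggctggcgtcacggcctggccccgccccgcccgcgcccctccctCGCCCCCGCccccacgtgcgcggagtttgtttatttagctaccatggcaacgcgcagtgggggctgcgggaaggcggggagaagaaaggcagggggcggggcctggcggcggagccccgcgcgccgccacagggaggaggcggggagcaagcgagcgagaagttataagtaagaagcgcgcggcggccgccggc
Dusp1: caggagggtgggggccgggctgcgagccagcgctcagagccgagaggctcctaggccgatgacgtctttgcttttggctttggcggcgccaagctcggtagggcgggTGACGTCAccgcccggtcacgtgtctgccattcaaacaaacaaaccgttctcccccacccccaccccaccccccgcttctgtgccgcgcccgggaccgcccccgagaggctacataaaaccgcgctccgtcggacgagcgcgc
Rhob: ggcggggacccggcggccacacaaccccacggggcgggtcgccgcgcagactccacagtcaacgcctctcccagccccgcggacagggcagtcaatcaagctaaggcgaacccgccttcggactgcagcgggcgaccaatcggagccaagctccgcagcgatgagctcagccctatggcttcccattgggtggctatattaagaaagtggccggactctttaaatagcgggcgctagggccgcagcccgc

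The 6 motifs were searched on both strands of these windows, with positions counted back from -1 at the base before the start. The Fos capitals are a TATA box, TATAAA, at -33 to -28. In Klf2 and in Klf4 they are the Egr site GCGGGGGCG, at -199 to -191 in Klf2 and, on the other strand, at -194 to -186 in Klf4. The Dusp1 capitals are a cyclic AMP response element, TGACGTCA, at -143 to -136, while no match was found in the windows of Jun and Rhob. Windows were matched for 32 of the 39 genes, and those of Egr1, Egr3, Ier2, Klf10, Hsp90aa1, Nfkbiz and Myc were not used here. An Egr site, GCGGGGGCG or GCGTGGGCG, was in the window of 8 of the 32 genes (Dusp2, Fosb, Fosl2, Klf2, Klf4, Nr4a1, Socs3 and Zfp36) and in 3.06% of the 32851 windows in the table. A cyclic AMP response element was in 2 of the 32 genes (Btg2 and Dusp1) and in 1.55% of all windows, and the TATA box letters TATAAA in 5 (Btg1, Fos, Nr4a2, Tnfaip3 and Zfp36l1) and in 12.4% of all windows. These letters lay at -26 to -21 in Btg1, -33 to -28 in Fos and -29 to -24 in Zfp36l1. In Tnfaip3 they lay farther off, at -225 to -220, and in Nr4a2, on the other strand, at -164 to -159. CArG boxes, which bind SRF, were in 3 of the 32 genes (Dusp5, Egr2 and Zfp36) and in 1.47% of all windows. An AP-1 site, TGACTCA or TGAGTCA, was in Tnfaip3 alone and in 4.46% of all windows. The heat shock element was searched only in an exact form, with GAA and TTC alternating over 3 units, each 2 bases apart. This form was in 0 of the 32 genes and in 0.466% of all windows. Looser forms with mismatches were not searched, so a lack of heat shock elements in these windows is not shown. A gene was counted once if any of its windows held a match, whereas the background counts windows. Of the 39 windows of these 32 genes, 20.5% held an Egr site, 15.4% a CArG box and 12.8% a TATA box. For the cyclic AMP response element the share was 5.13%, and for the AP-1 site 2.56%. Several of the windows with a CArG box are overlapping windows of Egr2. Matches to different motifs did not overlap in these genes, and a match describes the letters only.

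B7hi cells had lower levels than B7low cells of 16 of the 39 genes and higher levels of 3, in the contrast averaged over both challenges. The genes that were lower include Fos, Jun, Junb, Egr1, Klf2, Klf4, Klf6, Dusp1 and Rhob, and those that were higher are Klf10, Ier3 and Btg2. The background in this contrast was 6.08% of the 10533 tested genes lower and 5.8% higher, at an edgeR adjusted p under 0.05. With HDM, 7 of the 39 were lower and 1 higher, against 2.15% lower and 0.693% higher among all tested genes. With saline, 11 were lower and 1 higher, against 3.64% lower and 2.91% higher among all tested genes. The median log2 fold change of the 39 genes, B7hi over B7low, was -0.49 with HDM and -0.92 with saline, against 0.03 for all tested genes with either challenge. CPM ranges of B7hi lay wholly below those of B7low for 15 of the 39 with HDM and for 21 with saline, against 10.7% and 23.4% of all tested genes. The 6 genes lower with both challenges were 6 of the 7 lower with HDM and 6 of the 11 lower with saline. Of the 39 genes, 28 had the same sign with HDM and with saline, 21 of them negative and 7 positive.

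**Figure D1:**
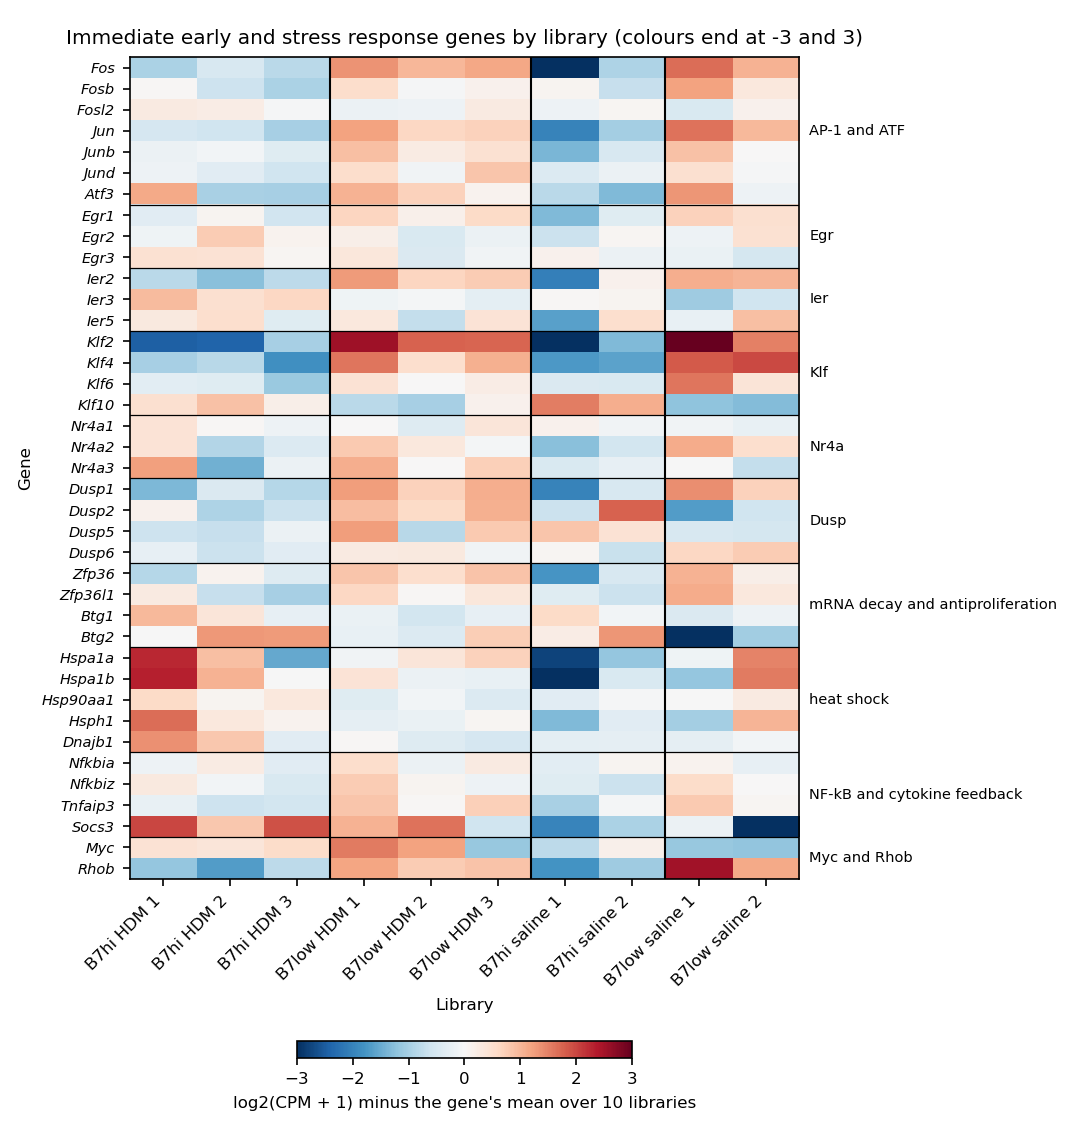
Heat map of log2(CPM + 1) minus each gene's mean over the 10 libraries, genes in rows by subfamily and libraries in columns by group, with colours ending at -3 and 3. Fos, Jun, Klf2, Klf4, Dusp1 and Rhob are blue in all 5 B7hi libraries and red in all 5 B7low libraries, while heat shock genes are reddest in the library B7hi HDM 1.

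**Figure D2:**
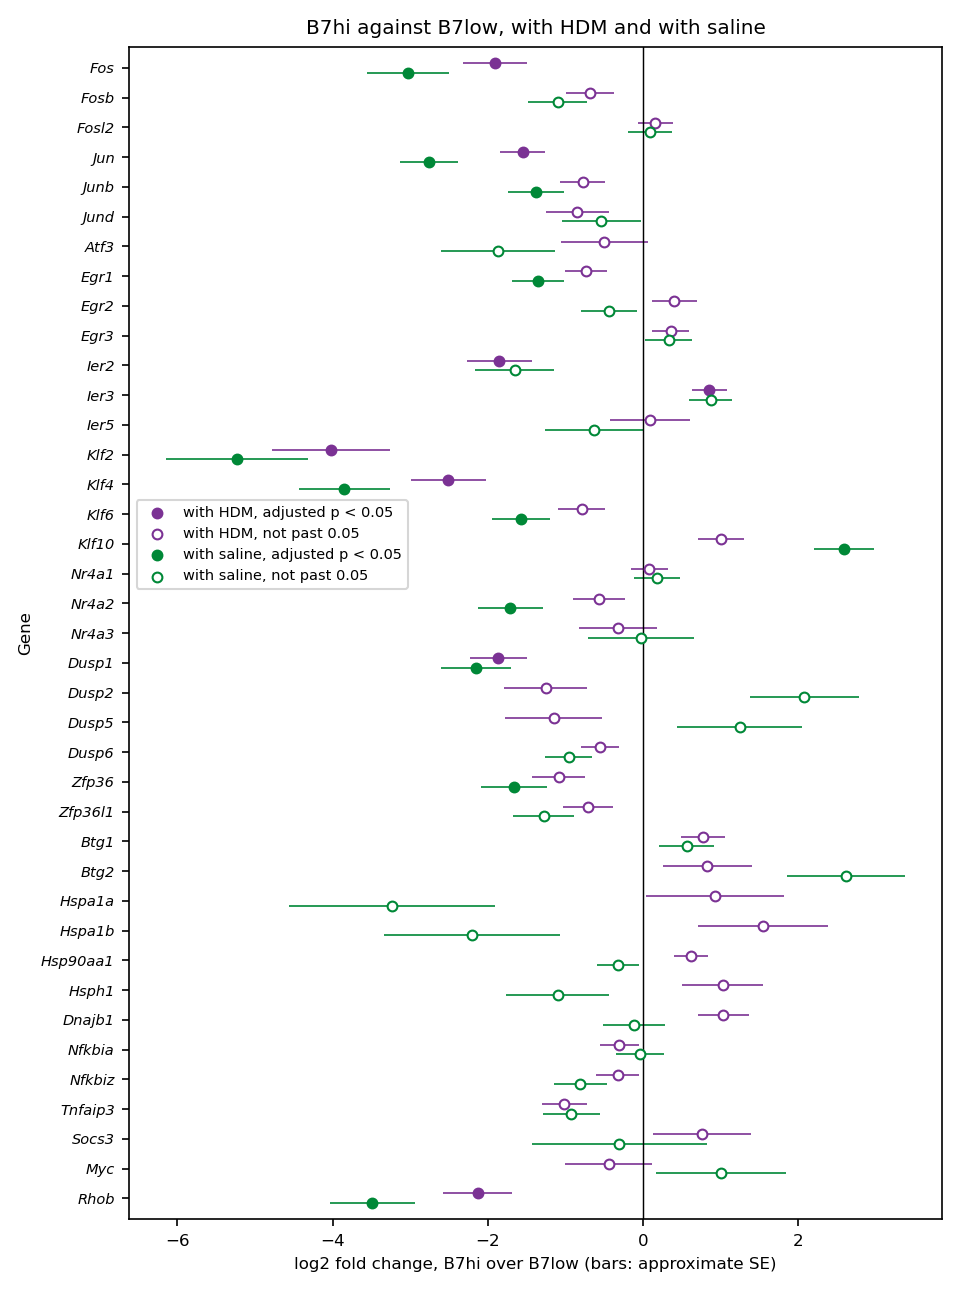
Log2 fold change of B7hi over B7low for each of the 39 genes with HDM (purple) and with saline (green), with bars of 1 approximate SE and filled points at an edgeR adjusted p under 0.05. Most filled points lie left of 0, from -5.23 for Klf2 with saline upward, and Ier3 with HDM and Klf10 with saline lie right of 0.

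AP-1 factors are dimers of Fos and Jun family proteins that bind the AP-1 site, and Atf3 is a stress-induced partner and repressor. Of the 7 genes of this subfamily, 4 were lower in B7hi on average (Fos, Fosb, Jun and Junb). Fos, the best known immediate early transcription factor, stood at 913, 1258 and 994 CPM in the B7hi HDM libraries, against 4477, 3493 and 3903 CPM in the B7low HDM libraries. With saline its level was 209 and 915 CPM in the B7hi saline libraries, against 5616 and 3587 CPM in the B7low saline libraries. Every B7hi library was below every B7low library, and B7hi saline 1 was the lowest of the 10. The log2 fold change of Fos, given here and below with an approximate SE, was -1.91 ± 0.41 (edgeR adjusted p = 0.025) with HDM and -3.03 ± 0.53 (edgeR adjusted p = 0.0041) with saline. Jun, the main partner of Fos, stood at 1878, 1765 and 1344 CPM in the B7hi HDM libraries, against 6131, 4119.8 and 4331 CPM in the B7low HDM libraries. Its saline levels were 663 and 1327 CPM in the B7hi saline libraries, against 8214 and 5241 CPM in the B7low saline libraries. The 5 B7hi libraries again lay below the 5 B7low libraries. For Jun the log2 fold change was -1.55 ± 0.29 (edgeR adjusted p = 0.0076) with HDM and -2.76 ± 0.38 (edgeR adjusted p = 3.6e-04) with saline.

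Junb, a Jun relative with the highest level per length of the 39 genes, stood at 3261, 3488 and 2870.5 CPM in the B7hi HDM libraries, against 6937, 4405 and 5091 CPM in the B7low HDM libraries. In saline libraries Junb was at 1423 and 2646 CPM in the B7hi saline libraries, against 6828 and 3756 CPM in the B7low saline libraries. The groups did not overlap with either challenge, but the log2 fold change passed the test with saline, at -1.38 ± 0.36 (edgeR adjusted p = 0.030), and missed it with HDM, at -0.77 ± 0.29 (edgeR adjusted p = 0.21). Fosb, which like Fos pairs with Jun proteins, stood at 693, 442 and 353 CPM in the B7hi HDM libraries, against 981, 661 and 747 CPM in the B7low HDM libraries. Its saline levels were 716 and 417 CPM in the B7hi saline libraries, against 1577 and 843 CPM in the B7low saline libraries. The HDM groups overlapped and the saline groups did not, and Fosb passed the test only in the average of both challenges, at -0.89 ± 0.25 (edgeR adjusted p = 0.028). The other 3 genes of the subfamily passed in no contrast: Jund, a Jun protein that is usually constitutive, had a log2 fold change of -0.69 ± 0.33 (edgeR adjusted p = 0.19) on average, Atf3 of -1.18 ± 0.46 (edgeR adjusted p = 0.12) and the Fos relative Fosl2 of 0.13 ± 0.18 (edgeR adjusted p = 0.70). Atf3 reached 87.5 CPM in B7hi HDM 1, against 19.2 and 19.6 CPM in the other B7hi HDM libraries, and without that library its average contrast passed (adjusted p = 0.0034). The average contrast of Atf3 also passed with DESeq2 (adjusted p = 0.048). The Fos call with HDM was lost without any 1 of the 6 HDM libraries (edgeR adjusted p 0.058 to 0.12) and with limma-voom (adjusted p = 0.13), and that of Jun with HDM was lost without B7hi HDM 3 (p 0.0546 after adjustment) or without B7low HDM 1 (0.0507). The Junb call with saline was lost without B7hi saline 1 (p 0.27 after adjustment) or without B7low saline 1 (0.18), in a fit of the saline libraries alone (adjusted p = 0.15) and with library size in place of TMM (adjusted p = 0.0508), and the average Fosb call without any of B7hi saline 2, B7low saline 1, B7hi HDM 2, B7hi HDM 3 and B7low HDM 1 (adjusted p 0.057 to 0.13). The saline log2 fold change of Fos was -2.37 without B7hi saline 1 and -4.50 without B7hi saline 2, and that of Jun was -3.38 without B7hi saline 2. Counting was not stated to use strand. Of the exon bases of Jund 52.6%, of Junb 7.5% and of Jun 7.3% lie opposite exons of another gene (Gm11175, Prdx2 and Junos), whose reads cannot be told apart from theirs. In other subfamilies this share was 22.1% for Dusp5 and 19.0% for Hspa1a.

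**Figure D3:**
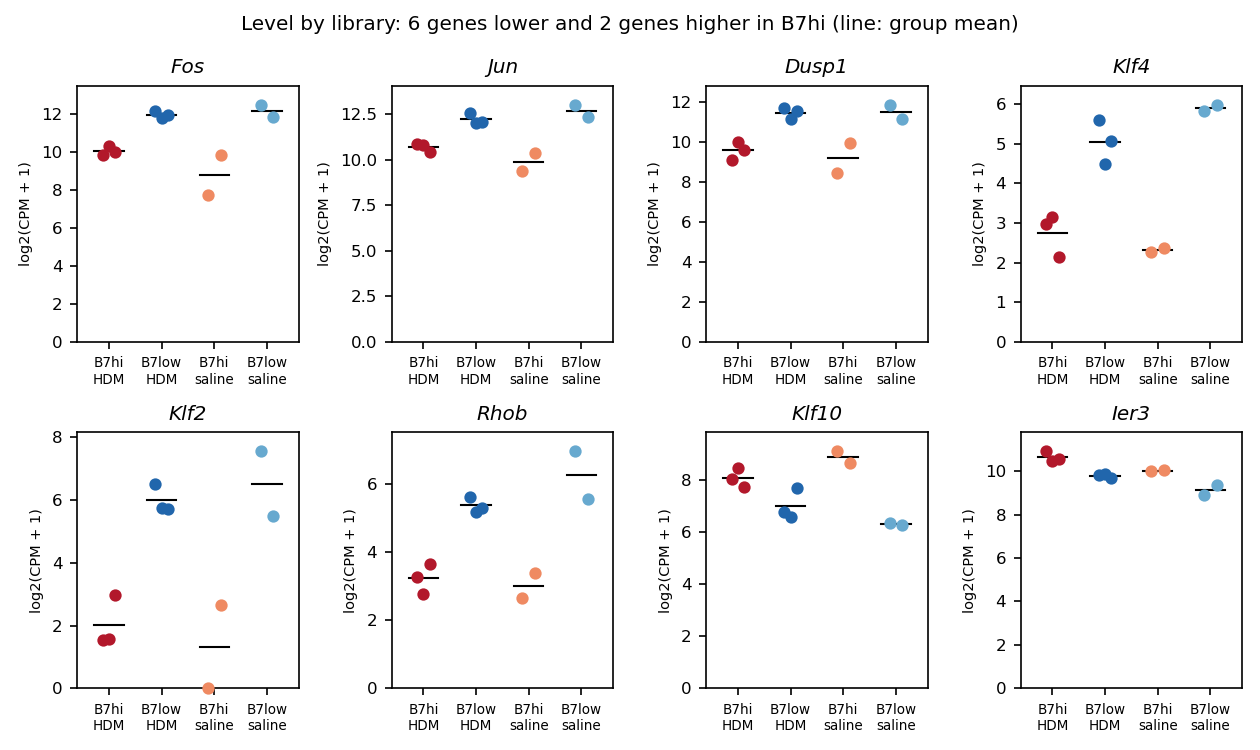
Level of 6 genes lower and 2 genes higher in B7hi, as log2(CPM + 1) by library, with a line at each group mean and axes that start at 0. The B7hi points of Fos, Jun, Dusp1, Klf4, Klf2 and Rhob lie below the B7low points with either challenge, and those of Klf10 and Ier3 lie above.

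Egr genes encode zinc finger factors induced through SRF. Egr1, the most studied of them, stood at 1767, 2351 and 1497 CPM in the B7hi HDM libraries, against 3521, 2476 and 3313 CPM in the B7low HDM libraries. With saline the levels were 898 and 1730.2 CPM in the B7hi saline libraries, against 3605 and 3114 CPM in the B7low saline libraries. B7hi libraries were below B7low libraries with either challenge, and the log2 fold change was -1.35 ± 0.34 (edgeR adjusted p = 0.025) with saline and -0.73 ± 0.27 (edgeR adjusted p = 0.21) with HDM. With saline the call fell away without B7hi saline 1 (p 0.25 after adjustment) or without B7low saline 1 (0.082), without both libraries rich in Kcnq1ot1 (adjusted p = 0.0544) and in a fit of the saline libraries alone (adjusted p = 0.12), and the average of both challenges, -1.04 ± 0.22 (edgeR adjusted p = 0.0046), passed under every alternative. Its relatives passed in no contrast. Egr2 ranged from 103 to 272 CPM over the 10 libraries, with an average log2 fold change of -0.01 ± 0.23 (edgeR adjusted p = 0.98), and Egr3 from 207 to 408 CPM, with 0.35 ± 0.19 (edgeR adjusted p = 0.28).

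Of the 3 Ier genes, named only for their immediate early response, Ier2 was lower and Ier3 higher in B7hi on average, and Ier5 was not called. Ier2, a nuclear protein, stood at 491, 358 and 492 CPM in the B7hi HDM libraries, against 2064, 1344 and 1445 CPM in the B7low HDM libraries. Its levels with saline were 206 and 929.8 CPM in the B7hi saline libraries, against 1827 and 1736 CPM in the B7low saline libraries. B7hi lay below B7low with either challenge, with B7hi saline 1 far below B7hi saline 2. Ier2 had a log2 fold change of -1.85 ± 0.42 (edgeR adjusted p = 0.034) with HDM, -1.65 ± 0.51 (edgeR adjusted p = 0.076) with saline and -1.75 ± 0.33 (edgeR adjusted p = 0.0042) on average. Ier3, an NF-kB target linked to cell survival, ran the other way, at 1916, 1392 and 1527 CPM in the B7hi HDM libraries, against 915, 946 and 808 CPM in the B7low HDM libraries. Its saline levels were 1023 and 1044 CPM in the B7hi saline libraries, against 472 and 652 CPM in the B7low saline libraries. Every B7hi library was above every B7low library, and within each population every HDM library was above every saline library. For B7hi over B7low the Ier3 log2 fold change was 0.86 ± 0.22 (edgeR adjusted p = 0.0496) with HDM, 0.88 ± 0.28 (edgeR adjusted p = 0.068) with saline and 0.87 ± 0.18 (edgeR adjusted p = 0.0041) on average. Ier5 ranged from 9.82 to 61.9 CPM. The HDM call of Ier2 was lost with limma-voom (adjusted p = 0.17), without both libraries rich in Kcnq1ot1 (adjusted p = 0.18) and without any 1 of the 6 HDM and 2 B7low saline libraries (adjusted p 0.055 to 0.13). That of Ier3 was lost under 15 of 20 alternatives, among them leaving out any 1 of the 6 HDM or 2 B7hi saline libraries (adjusted p 0.068 to 0.18), whereas the average contrasts of Ier2 and Ier3 passed under every alternative, with -2.50 for Ier2 without B7hi saline 2.

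Klf genes encode zinc finger factors: Klf2 and Klf4 hold cells quiescent and are known for their part in endothelium and in lymphocyte and monocyte differentiation, Klf6 is widely induced by injury, and Klf10 is an early target of TGF-beta. Of the 4, 3 were lower in B7hi (Klf2, Klf4 and Klf6) and Klf10 was higher. Klf2 stood at 1.88, 1.96 and 6.85 CPM in the B7hi HDM libraries, against 90.8, 52.7 and 51.8 CPM in the B7low HDM libraries. With saline the levels were 0 and 5.22 CPM in the B7hi saline libraries, against 185 and 43.5 CPM in the B7low saline libraries. Klf2 did not exceed 6.85 CPM in B7hi and was far above that in every B7low library, with a log2 fold change of -4.02 ± 0.76 (edgeR adjusted p = 0.013) with HDM and -5.23 ± 0.92 (edgeR adjusted p = 0.0046) with saline, the lowest of the 39 in both contrasts. At these few counts the Klf2 value moved with single libraries, to -5.00 with HDM without B7hi HDM 3, and with saline to -4.47 without B7hi saline 1, -3.85 without B7low saline 1 and -5.92 without B7low saline 2. Without B7hi saline 2 the lone B7hi saline library had no Klf2 count, and a fitted value then depends on the prior count and is no bound. Klf4 stood at 6.88, 7.83 and 3.42 CPM in the B7hi HDM libraries, against 47.4, 21.5 and 32.2 CPM in the B7low HDM libraries. In saline libraries it was at 3.78 and 4.18 CPM in the B7hi saline libraries, against 56 and 61.9 CPM in the B7low saline libraries. Its groups were far apart with either challenge, and its log2 fold change was -2.51 ± 0.48 (edgeR adjusted p = 0.0082) with HDM and -3.85 ± 0.59 (edgeR adjusted p = 8.5e-04) with saline. Klf2 is also abundant in B cells and endothelium. B cell markers summed to more in B7low HDM than in any other group, and 6 endothelial markers (Pecam1, Cdh5, Kdr, Tek, Emcn and Cldn5) summed to 109.6 to 157 CPM in B7hi HDM, 97.9 to 439 CPM in B7low HDM, 116 to 128 CPM in B7hi saline and 59.4 to 172 CPM in B7low saline libraries. Their part in the contrasts of Klf2 and Klf4 was not tested.

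Klf6 stood at 681, 659.6 and 388 CPM in the B7hi HDM libraries, against 1134, 853 and 993 CPM in the B7low HDM libraries. Saline libraries held 627 and 615 CPM in the B7hi saline libraries, against 2586 and 1100.3 CPM in the B7low saline libraries. B7low saline 1 was the highest library by far, and B7hi lay below B7low with either challenge. The log2 fold change of Klf6 was -0.79 ± 0.30 (edgeR adjusted p = 0.22) with HDM, -1.57 ± 0.37 (edgeR adjusted p = 0.018) with saline and -1.18 ± 0.24 (edgeR adjusted p = 0.0037) on average. Klf10 stood at 268, 354 and 216 CPM in the B7hi HDM libraries, against 108, 95 and 208 CPM in the B7low HDM libraries. In the saline libraries it was at 553 and 409.8 CPM in the B7hi saline libraries, against 82.2 and 76.9 CPM in the B7low saline libraries. B7hi lay above B7low with either challenge, by a wide gap with saline and narrowly with HDM. Its log2 fold change was 1.01 ± 0.29 (edgeR adjusted p = 0.084) with HDM and 2.60 ± 0.39 (edgeR adjusted p = 6.9e-04) with saline. The saline call of Klf6 was lost without B7hi saline 1 (p 0.13 after adjustment) or without B7hi saline 2 (0.12) or without B7low saline 1 (0.18) and in a fit of the saline libraries alone (adjusted p = 0.098), and its log2 fold change was -0.83 without B7low saline 1. With HDM the call of Klf2 was lost without B7hi HDM 1 (p 0.064 after adjustment), that of Klf4 was lost without B7hi HDM 3 (p 0.061 after adjustment), and Klf10 passed without B7low HDM 3 (p 0.017 after adjustment), with DESeq2 (adjusted p = 0.040) and with limma-voom (adjusted p = 0.022).

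Nr4a genes encode orphan nuclear receptors that calcium and cyclic AMP signals induce. Nr4a2 alone of the 3 passed, at 234, 95.9 and 132 CPM in the B7hi HDM libraries, against 306, 222 and 169 CPM in the B7low HDM libraries. With saline its levels were 74.1 and 120.1 CPM in the B7hi saline libraries, against 386 and 251 CPM in the B7low saline libraries. B7hi lay below B7low with saline, and the HDM groups overlapped, with B7hi HDM 1 above 2 of the B7low libraries. The log2 fold change of Nr4a2 was -1.71 ± 0.42 (edgeR adjusted p = 0.024) with saline, -0.56 ± 0.33 (edgeR adjusted p = 0.51) with HDM and -1.14 ± 0.27 (edgeR adjusted p = 0.011) on average. Nr4a1, also called Nur77, was among the most abundant genes per length and ranged only from 2563 to 4429 CPM, with an average log2 fold change of 0.13 ± 0.19 (edgeR adjusted p = 0.71). Nr4a3 ranged from 9.79 to 67.5 CPM and had -0.17 ± 0.42 (edgeR adjusted p = 0.85). The Nr4a2 calls were lost without B7hi saline 1 (adjusted p = 0.19 with saline and 0.063 on average) and without B7low saline 1 (0.12 with saline and 0.056 on average).

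Dusp genes encode phosphatases that switch MAP kinases off: Dusp1 acts in the nucleus on p38, JNK and ERK, Dusp2 in the nucleus chiefly on ERK and p38, Dusp5 in the nucleus on ERK and Dusp6 in the cytoplasm on ERK. Dusp1 stood at 560.0, 1045 and 787 CPM in the B7hi HDM libraries, against 3383, 2288 and 3021 CPM in the B7low HDM libraries. After saline it was at 349.9 and 1008 CPM in the B7hi saline libraries, against 3756 and 2283 CPM in the B7low saline libraries. All B7hi libraries were below all B7low libraries, and the log2 fold change was -1.86 ± 0.37 (edgeR adjusted p = 0.012) with HDM and -2.15 ± 0.45 (edgeR adjusted p = 0.011) with saline. Dusp6 stood at 133, 102 and 126 CPM in the B7hi HDM libraries, against 192, 194 and 148 CPM in the B7low HDM libraries. Its saline levels were 165 and 99.2 CPM in the B7hi saline libraries, against 243 and 268 CPM in the B7low saline libraries. The groups did not overlap within a challenge but the gaps were small, and Dusp6 passed only on average, at -0.76 ± 0.19 (edgeR adjusted p = 0.018). Dusp2 stood at 95, 45 and 54.8 CPM in the B7hi HDM libraries, against 165, 128 and 183 CPM in the B7low HDM libraries. In the saline libraries it was at 54.4 and 298 CPM in the B7hi saline libraries, against 26.2 and 56.9 CPM in the B7low saline libraries. B7hi lay below B7low with HDM, while the saline groups overlapped and B7hi saline 2 was the highest of the 10 libraries. For Dusp2 the log2 fold change was -1.25 ± 0.54 (edgeR adjusted p = 0.34) with HDM and 2.08 ± 0.71 (edgeR adjusted p = 0.11) with saline. Dusp5, at 5.20 to 25.8 CPM, had the same pair of signs, at -1.15 ± 0.62 (edgeR adjusted p = 0.46) with HDM and 1.25 ± 0.81 (edgeR adjusted p = 0.39) with saline. The Dusp1 call with HDM was lost without B7hi HDM 3 (p 0.064 after adjustment) and with limma-voom (adjusted p = 0.0537), and with saline it was lost without B7hi saline 1 (p 0.093 after adjustment) or without B7low saline 1 (0.077) and in a fit of the saline libraries alone (adjusted p = 0.068), while without B7hi saline 2 its log2 fold change was -3.14. The average call of Dusp6 was lost without B7hi saline 2 (p 0.10 after adjustment) and without both libraries rich in Kcnq1ot1 (adjusted p = 0.078), and the saline contrast of Dusp2 passed without B7hi saline 1 (p 0.0067 after adjustment) and with DESeq2 (adjusted p = 0.023).

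Zfp36 (tristetraprolin) and its relative Zfp36l1 bind AU-rich mRNAs, those of cytokines among them, and direct their decay, while Btg1 and Btg2 restrain proliferation and promote deadenylation. Zfp36 and Zfp36l1 were lower in B7hi and Btg2 was higher. Zfp36 stood at 136, 266 and 191 CPM in the B7hi HDM libraries, against 445, 349.9 and 451 CPM in the B7low HDM libraries. Saline libraries had 71.8 and 177 CPM in the B7hi saline libraries, against 511 and 281 CPM in the B7low saline libraries. B7hi lay below B7low with either challenge, with log2 fold changes of -1.08 ± 0.34 (edgeR adjusted p = 0.12) with HDM, -1.66 ± 0.42 (edgeR adjusted p = 0.029) with saline and -1.37 ± 0.27 (edgeR adjusted p = 0.0038) on average. Zfp36l1 stood at 196, 99.8 and 80.8 CPM in the B7hi HDM libraries, against 251, 167 and 203 CPM in the B7low HDM libraries. Its saline levels were 125 and 103 CPM in the B7hi saline libraries, against 349.7 and 202 CPM in the B7low saline libraries. The HDM groups overlapped and the saline groups did not, and Zfp36l1 passed on average alone, at -0.99 ± 0.25 (edgeR adjusted p = 0.018). Btg2 stood at 288, 718 and 709.6 CPM in the B7hi HDM libraries, against 251, 219.8 and 487 CPM in the B7low HDM libraries. In the saline libraries it was at 342 and 729 CPM in the B7hi saline libraries, against 31.5 and 142 CPM in the B7low saline libraries. B7hi lay above B7low with saline and overlapped it with HDM, and the average log2 fold change was 1.73 ± 0.47 (edgeR adjusted p = 0.0476). Btg1 ranged from 487 to 1414 CPM, with an average log2 fold change of 0.67 ± 0.23 (edgeR adjusted p = 0.067). The saline call of Zfp36 was lost without B7hi saline 1 (p 0.22 after adjustment) or without B7low saline 1 (0.16), in a fit of the saline libraries alone (adjusted p = 0.10) and with library size in place of TMM (adjusted p = 0.0520), and its log2 fold change was -2.49 without B7hi saline 2. The average call of Zfp36l1 was lost without B7hi saline 1 (p 0.0502 after adjustment) or without B7hi saline 2 (0.080) or without B7low saline 1 (0.086). The Btg2 call was lost without any of 7 libraries (B7hi saline 1 and 2, B7low saline 1, B7hi HDM 2 and 3, B7low HDM 1 and 2, adjusted p 0.056 to 0.14), with DESeq2 size factors (adjusted p = 0.0545) and with limma-voom (adjusted p = 0.070), and its log2 fold change was 2.46 without B7low saline 2. For Zfp36l1, 55.9% of the exon bases lie opposite exons of Gm26669.

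Nfkbia (IkB-alpha), Nfkbiz (IkB-zeta) and Tnfaip3 (A20) are NF-kB targets that hold NF-kB back or shape its output, and Socs3 inhibits cytokine receptor signalling through JAK and STAT. Tnfaip3 alone of the 4 passed between populations, at 3019, 2289.9 and 2394 CPM in the B7hi HDM libraries, against 6186, 3599 and 5726 CPM in the B7low HDM libraries. With saline it was at 1774 and 3336 CPM in the B7hi saline libraries, against 6044 and 3617 CPM in the B7low saline libraries. B7hi lay below B7low with either challenge, and the average log2 fold change was -0.96 ± 0.23 (edgeR adjusted p = 0.012), which did not pass without B7hi saline 1 (p 0.083 after adjustment) or without B7low saline 1 (0.059). Nfkbia ranged from 1160.2 to 2113 CPM, with an average log2 fold change of -0.17 ± 0.20 (edgeR adjusted p = 0.64), and Nfkbiz from 1378 to 3622 CPM, with -0.56 ± 0.22 (edgeR adjusted p = 0.11).

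Rhob, an immediate early small GTPase of endosomes and the cytoskeleton, was lower in B7hi with both challenges, and Myc, a growth factor-induced transcription factor, passed in no contrast. Rhob stood at 8.75, 5.87 and 11.6 CPM in the B7hi HDM libraries, against 48.8, 35.8 and 38.5 CPM in the B7low HDM libraries. With saline it was at 5.29 and 9.40 CPM in the B7hi saline libraries, against 124 and 46.8 CPM in the B7low saline libraries. No B7hi library came near the lowest B7low library, and the log2 fold change was -2.13 ± 0.45 (edgeR adjusted p = 0.015) with HDM and -3.49 ± 0.55 (edgeR adjusted p = 0.0010) with saline. Its HDM call was lost without B7hi HDM 1 (p 0.059 after adjustment) or without B7hi HDM 2 (0.061) or without B7low HDM 1 (0.064), and its saline log2 fold change was -2.63 without B7low saline 1. Myc stood at 22.5, 21.5 and 24.7 CPM in the B7hi HDM libraries, against 50.2, 39 and 6.95 CPM in the B7low HDM libraries. In the saline libraries it was at 9.07 and 18.3 CPM in the B7hi saline libraries, against 6.99 and 6.69 CPM in the B7low saline libraries. B7low HDM 1 and 2 were the highest libraries and B7low HDM 3 was at the level of the B7low saline libraries.

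HDM against saline, tested within each population, gave no call among the 39 genes. In B7hi cells edgeR called 0 of the 39, against 0.00949% of all tested genes (1 gene), and the smallest adjusted p among the 39 was 0.36, for Socs3. At an unadjusted p under 0.05 there were 9 of the 39 in B7hi, against 4.13% of all tested genes, while DESeq2 called 1 (Socs3) and limma-voom 0. In B7low cells edgeR called 0 of the 39, again against 0.00949% of all tested genes, with a smallest adjusted p of 0.43 for Myc, 8 at an unadjusted p under 0.05 against 9.08% of all tested genes, and 0 with DESeq2 and with limma-voom. The median log2 fold change of the 39 genes, HDM over saline, was 0.38 in B7hi and -0.09 in B7low, against 0.02 and 0.03 for all tested genes. Each HDM contrast shares libraries with each population contrast, and their values are given side by side only. For the interaction (the log2 fold change with HDM in B7hi cells less that in B7low cells) edgeR called 0 of the 39 and 0% of all tested genes, with 10 of the 39 and 8.55% of all tested genes at an unadjusted p under 0.05, 1 called by DESeq2 (Dusp2) and 0 by limma-voom.

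Socs3 stood at 50.6, 21.5 and 47.3 CPM in the B7hi HDM libraries, against 2.27 and 5.74 CPM in the B7hi saline libraries. In B7low cells it was at 25.8, 39 and 7.58 CPM in the B7low HDM libraries, against 10.5 and 0 CPM in the B7low saline libraries. The B7hi groups did not overlap, the B7low groups did, and the log2 fold change was 3.26 ± 0.84 (edgeR adjusted p = 0.36) in B7hi, where DESeq2 gave an adjusted p of 0.016, and 2.19 ± 0.95 (edgeR adjusted p = 0.52) in B7low. Jun was at 1344 to 1878 CPM in B7hi HDM, against 663 to 1327 CPM in B7hi saline libraries, groups that barely parted, with a log2 fold change of 0.74 ± 0.33 (edgeR adjusted p = 0.999). Ier3, the gene with every HDM library above every saline library in each population, had 0.64 ± 0.25 (edgeR adjusted p = 0.999) in B7hi and 0.66 ± 0.26 (edgeR adjusted p = 0.46) in B7low. Dusp2, at the levels given above, had -1.41 ± 0.58 (edgeR adjusted p = 0.999) in B7hi, 1.93 ± 0.67 (edgeR adjusted p = 0.44) in B7low and an interaction of -3.34 ± 0.89 (edgeR adjusted p = 0.37). That interaction passed with DESeq2 (adjusted p = 0.016) and without B7hi saline 1 (p 0.030 after adjustment), and the Dusp2 effect in B7hi rests on B7hi saline 2, without which its log2 fold change was 0.29.

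The 5 heat shock genes are targets of heat shock factor 1 and encode chaperones: Hspa1a and Hspa1b the inducible Hsp70, Hsp90aa1 an Hsp90, Hsph1 the nucleotide exchange factor Hsp110 and Dnajb1 an Hsp40 cochaperone. None of the 5 was called in any contrast. Hspa1a stood at 31.9, 11.7 and 1.37 CPM in the B7hi HDM libraries, against 5.42, 7.81 and 10.1 CPM in the B7low HDM libraries. With saline it was at 0 and 2.09 CPM in the B7hi saline libraries, against 5.25 and 18.4 CPM in the B7low saline libraries. B7hi HDM 1 was the highest library and B7hi saline 1 had no count, which at its depth allows up to 2.45 CPM. Hspa1b stood at 49.4, 19.6 and 8.90 CPM in the B7hi HDM libraries, against 12.2, 7.81 and 7.58 CPM in the B7low HDM libraries. After saline it was at 0 and 6.26 CPM in the B7hi saline libraries, against 3.50 and 28.4 CPM in the B7low saline libraries, with the same libraries at the top and bottom as for Hspa1a. Hsph1 stood at 244, 93.9 and 81.5 CPM in the B7hi HDM libraries, against 62.3, 66.3 and 78.4 CPM in the B7low HDM libraries. In the saline libraries it was at 29.5 and 59.5 CPM in the B7hi saline libraries, against 36.7 and 156 CPM in the B7low saline libraries. Here too B7hi HDM 1 was the highest, followed by B7low saline 2. Dnajb1 stood at 1790.1, 1215 and 545 CPM in the B7hi HDM libraries, against 710.2, 528 and 488 CPM in the B7low HDM libraries. Its saline levels were 562 and 573 CPM in the B7hi saline libraries, against 572 and 652 CPM in the B7low saline libraries. Only B7hi HDM 1 and 2 stood out, and B7hi HDM 3 was at the level of the other groups. Hsp90aa1 stood at 718, 517 and 607 CPM in the B7hi HDM libraries, against 375, 458 and 367 CPM in the B7low HDM libraries. With saline it was at 380.1 and 474 CPM in the B7hi saline libraries, against 479 and 587 CPM in the B7low saline libraries. B7hi lay above B7low with HDM and below it with saline.

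For B7hi over B7low all 5 heat shock genes had a log2 fold change above 0 with HDM, from 0.62 (Hsp90aa1) to 1.55 (Hspa1b), and below 0 with saline, from -3.24 (Hspa1a) to -0.11 (Dnajb1), but the sign turned for 3 of them under some alternatives. With HDM that of Hspa1a was -0.12 with limma-voom and -0.47 without B7hi HDM 1. With saline that of Hsph1 was 0.29 without B7low saline 2 and 0.29 without both libraries rich in Kcnq1ot1, and that of Dnajb1 was 0.16 with library size in place of TMM and 0.00042 with no count filter. The interaction was 4.17 ± 1.60 (edgeR adjusted p = 0.50) for Hspa1a, 3.75 ± 1.42 (edgeR adjusted p = 0.50) for Hspa1b and 2.13 ± 0.84 (edgeR adjusted p = 0.53) for Hsph1. Dnajb1 had an interaction of 1.15 ± 0.52 (edgeR adjusted p = 0.56) and Hsp90aa1 one of 0.94 ± 0.35 (edgeR adjusted p = 0.49). The mean log2(CPM + 1) over the 5 genes was 7.79 in B7hi HDM 1, 6.77 in B7hi HDM 2 and 5.85 in B7hi HDM 3, a wider spread than the 6.05 to 6.08 of the B7low HDM libraries, and it was 4.53 and 5.69 in B7hi saline and 5.62 and 7.00 in B7low saline libraries. The population contrast of Dnajb1 with HDM passed with DESeq2 (adjusted p = 0.0466) and without B7hi HDM 3 (p 0.011 after adjustment). Hspa1a and Hspa1b are near copies, with 65.5% and 69.6% of their 25-base exon stretches in common. Reads of 25 bases may therefore have been split between them or left uncounted.

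**Figure D4:**
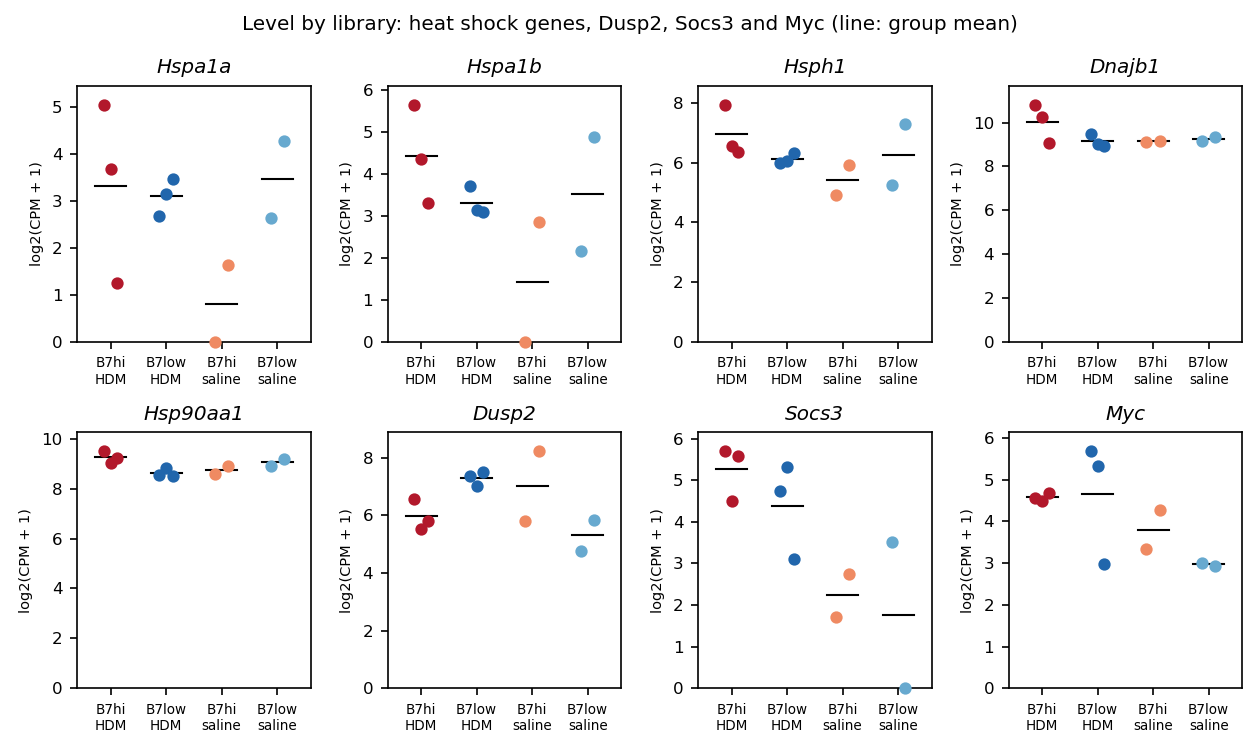
Level of the 5 heat shock genes, Dusp2, Socs3 and Myc, as log2(CPM + 1) by library, with a line at each group mean and axes that start at 0. The B7hi HDM points of Hspa1a, Hspa1b, Hsph1 and Dnajb1 are spread wide, with the library B7hi HDM 1 on top, and the Socs3 points of B7hi HDM lie above those of B7hi saline.

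Other genes of the same pathways were read from 6 lists of genes outside the 39, in the average contrast between populations. In this contrast 5.8% of all tested genes were higher in B7hi and 6.08% lower. Among upstream and other AP-1, CREB and SRF factors, 3 of 16 tested genes were higher in B7hi and 1 lower: Mafk, a small Maf protein, with 0.83 ± 0.24 (edgeR adjusted p = 0.035), the cyclic AMP factors Atf1 with 1.02 ± 0.30 (edgeR adjusted p = 0.036) and Crem with 0.71 ± 0.21 (edgeR adjusted p = 0.040), and the SRF coactivator Mkl2 with -1.12 ± 0.31 (edgeR adjusted p = 0.027). In the MAP kinase cascade and its other inhibitors, 2 of 25 were higher and 1 lower, near the shares of all tested genes. Dusp3, another MAP kinase phosphatase, averaged 12.9 ± 3.14 CPM in B7hi and 65.5 ± 24.4 CPM in B7low libraries (SD, n = 5 each), with a log2 fold change of -2.44 ± 0.32 (edgeR adjusted p = 9.8e-05), while Map2k3, the kinase of p38, had 1.06 ± 0.26 (edgeR adjusted p = 0.016) and the phosphatase Dusp16 had 1.75 ± 0.51 (edgeR adjusted p = 0.042). Of 21 other NF-kB genes 1 was higher, the IkB kinase Ikbkb with 0.88 ± 0.18 (edgeR adjusted p = 0.0048), and 0 were lower. The count of higher NF-kB genes was near the share of all tested genes too. Among integrated stress response and p53 targets 5 of 17 were lower and 1 higher. Ppp1r15a (Gadd34), which restarts translation after stress, averaged 489.6 ± 178 CPM in B7hi and 1366 ± 309 CPM in B7low libraries (SD, n = 5 each), with a log2 fold change of -1.62 ± 0.22 (edgeR adjusted p = 1.4e-04). Txnip had -0.85 ± 0.24 (edgeR adjusted p = 0.027) and Trp53, the p53 gene itself, had 0.83 ± 0.20 (edgeR adjusted p = 0.011).

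Chaperone genes outside the 5 described above were higher in 6 of 26 tested and lower in 0 of 26, against 5.8% higher and 6.08% lower among all tested genes. Dnaja1, an Hsp40, averaged 1993 ± 391 CPM in B7hi and 1099 ± 34.1 CPM in B7low libraries (SD, n = 5 each), with a log2 fold change of 0.87 ± 0.18 (edgeR adjusted p = 0.0043), Dnajb6 had 0.83 ± 0.19 (edgeR adjusted p = 0.0081) and the Hsp70 and Hsp90 adaptor Stip1 had 0.96 ± 0.22 (edgeR adjusted p = 0.0088). Of 28 other genes reported to rise after tissue dissociation 5 were lower in B7hi and 3 higher, among them the kinase Sgk1 with -1.49 ± 0.22 (edgeR adjusted p = 2.9e-04) and the cytokine inhibitor Socs2 with -1.01 ± 0.21 (edgeR adjusted p = 0.0043), both lower. The median log2 fold change over those 28 genes was -0.38, beside -0.56 over the 39 genes and 0.03 over all tested genes. Whether handling of the tissue differed between libraries was not tested.

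**Figure D5:**
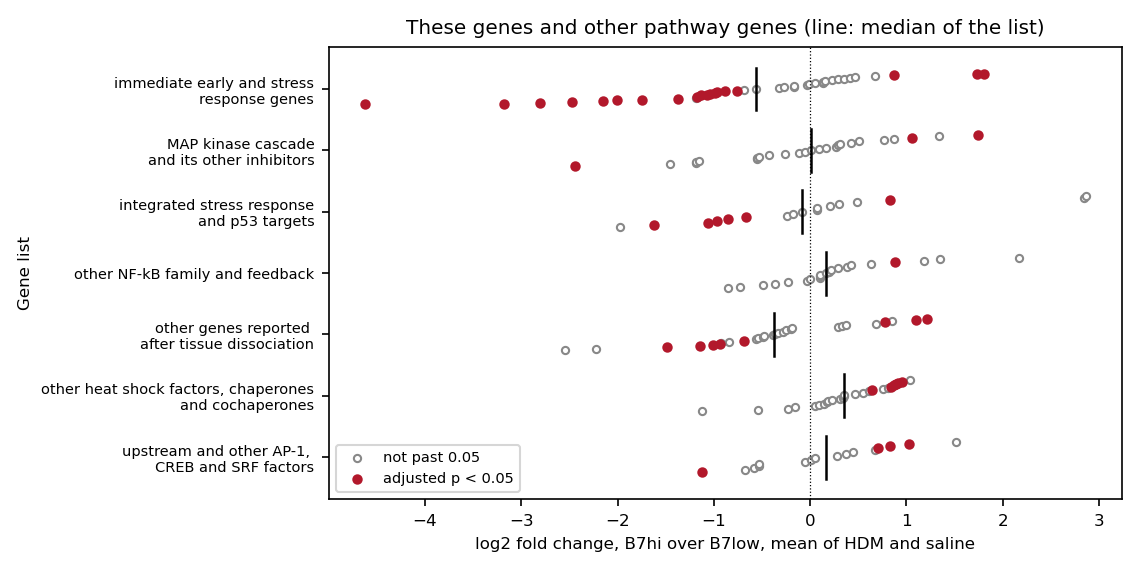
Log2 fold change of B7hi over B7low, averaged over both challenges, for each tested gene of the 39 immediate early and stress response genes and of 6 other pathway lists, with filled points at an edgeR adjusted p under 0.05 and a line at each list's median. The 39 genes have the lowest median, -0.56, and the other chaperone list has the highest, 0.35.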

How the data were processed

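The deposited table holds raw counts per gene symbol, 1 column per library, as whole numbers that the authors had not normalized. SmartSeq2 libraries were sequenced as paired reads of 25 nt per the labels' protocols, and mm10, TopHat2 2.0.10, DESeq2 and Cufflinks 2.2.1 appear in the submitters' processing notes without their roles. How reads were counted, on which annotation and whether by strand, is not given in the sources used here. From these counts, genes were filtered with filterByExpr, TMM-scaled and tested two-sided in edgeR 4.0.16 (R 4.3.3, glmQLFit with robust spread, glmQLFTest), in a joint fit of the 10 libraries with a mean for each group. Benjamini-Hochberg adjustment ran over the 10533 tested genes at a threshold of 0.05. The approximate SE divides the absolute log2 fold change by the square root of F. The common biological coefficient of variation was 0.359, and replicates differed by more than sampling noise (chi-square per degree of freedom 6.74 to 11.1). A count of 0 allows 1.74 to 5.70 CPM (3 counts over a library's total, counting error only). The genes and lists were chosen with earlier results of these data known, so the called shares are descriptions. Every one of the 39 genes is reported, and from each other list up to 3 genes with the smallest p past the threshold, of which 1 is not reported here. Alternatives were other scalings and filters, DESeq2 1.42.0, limma-voom (limma 3.58.1), the compared libraries alone, each library left out and the replicate number as a block. Steps were tested on simulated data. Levels per length used GENCODE M21 exons.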

Additional observations from a re-analysis of the deposited data

Results flagged for a closer look

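For Klf10 and Hsp90aa1, HDM and saline libraries did not overlap in either of the 2 populations, and the differences ran in opposite directions. They were picked from the 39 genes for this pattern, and how many of all tested genes share it was not counted. For Klf10 all 3 B7hi HDM libraries were below both B7hi saline libraries and all 3 B7low HDM libraries were above both B7low saline libraries, and the difference between the HDM effects was -1.58 on the log2 scale (edgeR adjusted p = 0.39). For Hsp90aa1 the pattern was the reverse, with a difference of 0.94 (edgeR adjusted p = 0.49). Neither difference passed the test, and each was the same measure that the report gives as an interaction.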

How the results depend on the processing

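For B7hi against B7low with HDM, 8 of the 39 genes were called as reported, 14 with no count filter, 5 without both libraries rich in Kcnq1ot1 and 5 with the replicate block, and 3 to 7 with 1 library left out (3 without B7hi HDM 3 or B7low HDM 1, 4 without B7hi HDM 1 or B7hi HDM 2). With saline, 12 were called as reported, 19 with no count filter, 19 with DESeq2, 7 in a fit of the saline libraries alone and 14 with the replicate block, and 6 to 15 with 1 library left out (6 without B7low saline 1, 7 without B7hi saline 1). Averaged over both challenges, 19 were called as reported and 14 to 20 with 1 library left out. For HDM against saline in B7hi, 0 were called as reported, 4 with no count filter and 1 with DESeq2, and in B7low 0 as reported and 1 with no count filter. The interaction called 0 as reported, 3 with no count filter, 1 with DESeq2 and 1 without B7hi saline 1. Genes called only by DESeq2 and not as reported were, with saline, Fosb, Ier2, Ier3, Dusp2, Dusp6, Zfp36l1 and Btg2 (DESeq2 adjusted p 0.0056 to 0.037). With HDM they were Klf10, Zfp36, Dnajb1 and Tnfaip3 (DESeq2 adjusted p 0.014 to 0.047). On average they were Atf3 and Nfkbiz (DESeq2 adjusted p 0.048 and 0.047). Some of these passed under other alternatives too, such as Ier3 with saline under limma-voom (adjusted p = 0.039). The cause of these changes was not tested. Calls that held under every alternative numbered 5 of 12 with saline, 13 of 19 on average and 0 of 8 with HDM. The Dusp2 log2 fold change for HDM over saline in B7hi was -1.41 as reported, -2.15 without B7hi saline 1 and 0.29 without B7hi saline 2. With library size in place of TMM the median log2 fold change of all tested genes with saline was 0.30, against 0.03 with TMM, and the share of higher genes among those called was 67.9%, against 44.4%, and 3 of the 39 genes changed sign with saline, none of them called with either scaling (Nr4a3 to 0.26, Dnajb1 to 0.16 and Nfkbia to 0.24). Libraries of the same replicate number and challenge deviated together by correlations of -0.10 to 0.04, so the numbers were not taken as pairs. With the replicate block, which is left out of the losses listed by gene above except in counts, some calls changed. Fos, Ier3, Klf2 and Dusp1 were lost with HDM (edgeR adjusted p 0.055 to 0.11). Klf2, Dusp1 and Zfp36 were lost with saline (edgeR adjusted p 0.052 to 0.074). Dusp2 was gained with HDM, and Fosb, Ier2, Dusp2, Zfp36l1 and Btg2 with saline. Group sizes of 2 and 3, and levels under 10 CPM in genes such as Klf2, Hspa1a and Dusp5, limit the precision.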
